A study of Mus musculus with 18 samples.

Results

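The iRTE libraries were set against the CD4+CD8+ libraries across all genes, on raw counts, as iRTE minus CD4+CD8+. This comparison holds 8 of the 18 libraries of the series, 5 labelled iRTE and 3 labelled CD4+CD8+. All are bulk RNA sequencing libraries of mouse T-lineage cells grown from Pmel iPSC, that is, induced pluripotent stem cells that the labels name Pmel, after a T-cell receptor for a melanocyte antigen. The 3 CD4+CD8+ libraries come from double-positive cells that differentiated on OP9-DL1, a stromal line that presents the Notch ligand DL1, and their descriptions call them immature. The 5 iRTE libraries come from CD8+ cells. The names of iRTE 1 to 3 call them mature, whereas those of iRTE 4 and 5 hold iRTE, which the labels do not spell out. The series' design text names a 3D thymic culture for some CD8+ cells, and iRTE is the remaining set that it can refer to, yet the growth field of every library names OP9-DL1. The other libraries are 5 of CD8+ cells named Artificial CD8, also made from Pmel iPSC on OP9-DL1, and 5 of splenic CD8, naive cells taken from transgenic mice. The sort used CD45, CD4, CD8 and the T-cell receptor as markers, with NK1.1, TCRgd and CD11c in a dump gate, and no treatment was given to any of them. The labels give no animal ages, nor do they say whether replicates were separate cultures. Each p-value below speaks only to a spread estimated over all 18 libraries, of which 8 are compared here. That spread can be technical.

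In the thymus, a double-positive cell carries both coreceptors, keeps its recombinase active to rearrange the T-cell receptor alpha gene, and survives briefly through Bcl-xL. A cell whose receptor recognises self peptide on MHC class I is positively selected, shuts off the recombinase and Cd4, and becomes a CD8 single-positive cell. Late maturation then adds survival through Bcl2 and the interleukin-7 receptor, MHC class I and interferon-response transcripts, and the receptors that let the cell leave the thymus as a recent thymic emigrant.

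Both groups held the transcripts of the T lineage that the labels name. Cd3e, a chain of the CD3 complex, lay between 637 and 1349 CPM (library-size-scaled counts, with TMM scaling) in iRTE and between 651 and 904 CPM in CD4+CD8+ cells. Ptprc, which encodes CD45, lay between 1145 and 2186 CPM and between 1448 and 2438 CPM. Bcl11b, a factor that holds T-cell identity, lay between 207 and 325 CPM and between 230 and 353 CPM. Cd4 had no count in any of the 5 iRTE libraries and was present in all 3 CD4+CD8+ libraries, as the labels say.

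Libraries held between 11691286 and 16533373 counts in iRTE and between 11747367 and 12208210 in CD4+CD8+ cells. The rank correlation across genes was between 0.935 and 0.984 within iRTE, between 0.975 and 0.99 within CD4+CD8+ cells and between 0.923 and 0.941 across the groups. The first principal component, with 40.6% of the variance of these 8 libraries, separated the groups, from -81.4 to -76.7 in CD4+CD8+ cells and from 25.3 to 63.3 in iRTE. The second, with 17.4%, set iRTE 4 apart at -104, against -0.233 to 39 elsewhere. The CD4+CD8+ libraries and iRTE 1 to 3 carry one style of name in their descriptions, and iRTE 4 and 5 carry the style of the Artificial CD8 and splenic libraries; the labels do not call this a batch. For this reason iRTE 1 to 3 and iRTE 4 and 5 were also each compared alone with CD4+CD8+ cells. In bulk samples such as these, fewer cells of a type and less RNA per cell cannot be told apart.

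The test covered 13922 genes and called 1648 (11.8%) higher and 1719 (12.3%) lower in iRTE at an adjusted p under 0.05, by edgeR's quasi-likelihood test with Benjamini-Hochberg adjustment. At least a 2-fold difference was found for 746 (5.36%) of the higher and 936 (6.72%) of the lower genes. In 2715 genes (19.5%) the libraries of the groups did not overlap, with iRTE above in 1144 and below in 1571. The median log2 change over all genes was 0.02. These calls use a spread that the Artificial CD8 and splenic libraries help to set. When the fit held the 8 libraries alone, spread was estimated from them only. It called 516 of 12008 genes (4.3%) higher and 552 (4.6%) lower, of which 514 and 552 were among the calls above. With iRTE 1 to 3, 1482 of the 1648 higher and 1597 of the 1719 lower calls were also made, with iRTE 4 and 5 it was 1118 and 1200, and 961 and 1115 were made with both. Over all genes, the fit with iRTE 1 to 3 called 2235 higher and 2615 lower. Without iRTE 4 it was 1931 and 2158, and with iRTE 4 and 5 it was 1688 and 1750. Counts of list members from these fits, given below, stand beside these larger totals.

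**Figure D1:**
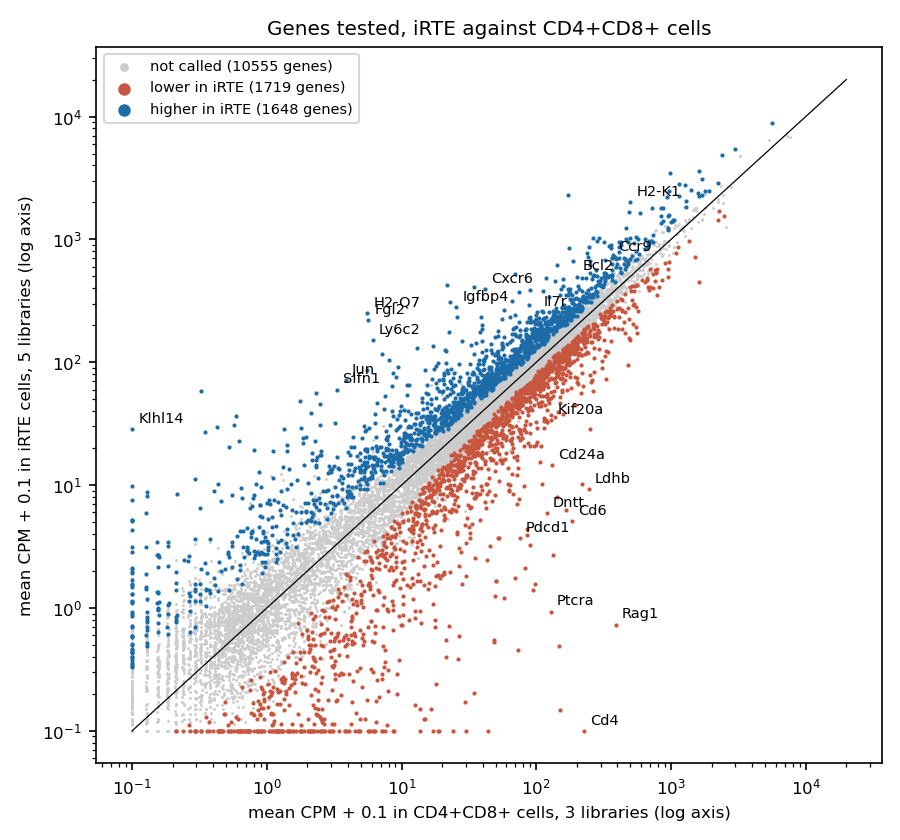
Mean level of each of the 13922 genes tested in the 3 CD4+CD8+ libraries (horizontal) and the 5 iRTE libraries (vertical), in CPM plus 0.1 on log axes; the line marks equal levels. The 1648 higher genes (blue) and 1719 lower genes (red) lie on both sides of it, with Cd4, Rag1 and Ptcra far below and Klhl14, H2-Q7, Fgl2 and Slfn1 far above.

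Several transcripts of the double-positive programme were at or near 0 in iRTE. Values are given in library order, iRTE 1 to 5 and then CD4+CD8+ 1 to 3. Cd4, the coreceptor for MHC class II, stood at 0 CPM in all 5 iRTE libraries and at 155, 253 and 263 CPM in CD4+CD8+ cells, at least 934-fold lower when 3 counts per library are taken as the detection floor (adjusted p = 8.04e-09). Every CD4+CD8+ library lay far above every iRTE library. CD4 was a marker of the sort and defines the groups, so the difference in Cd4 was set in advance and is no independent result. Cd4 is also among the fallen members of the double-positive identity, coreceptor and CD4 helper lists below.

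Both subunits of the recombinase were at or near 0 in iRTE. Rag1 stood at 0, 0, 0.0885, 0 and 3.07 CPM against 258, 445 and 463 CPM (log2 change -9.04 ± 0.93 SE, adjusted p = 4.38e-07). Rag2 stood at 0, 0, 0, 0.748 and 1.22 CPM against 103, 169 and 168 CPM (-8.29 ± 0.78, adjusted p = 3.36e-09). Ptcra, the surrogate alpha chain of the pre-T-cell receptor, had no count in iRTE 1 to 4, stood at 4.16 CPM in iRTE 5 and at 163, 114 and 108 CPM in CD4+CD8+ cells (-7.09 ± 1.01, adjusted p = 4.52e-05). Most of the residual Rag1 and all of the residual Ptcra thus lay in iRTE 5; in iRTE 1 to 4 Rag1 had counts in iRTE 3 alone. Dntt, the polymerase that adds bases at V(D)J joints, remained measurable at 3.35, 4.44, 5.58, 14.8 and 0.832 CPM against 130, 109 and 119 CPM (-4.34 ± 0.64, adjusted p = 1.18e-06).

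Of the 16 tested genes of V(D)J recombination and the pre-T-cell receptor, 11 fell, 1 rose and 4 did not pass the test, with a median of -0.84 against 0.02 over all genes. The fall included the joining machinery that other cells also use. Lig4, the ligase of end joining, stood between 2.92 and 5.42 CPM in iRTE against 30, 63.8 and 61.1 CPM (-3.83 ± 0.39, adjusted p = 4e-09), and Xrcc6, which encodes Ku70, between 101 and 149 CPM against 354, 321 and 306 CPM (-1.4 ± 0.14, adjusted p = 2.83e-07). The member that rose was Atm, the kinase that signals double-strand breaks (0.66 ± 0.25, adjusted p = 0.0264), whose libraries overlapped between groups and whose call was lost in the fit of the 8 libraries alone, with CD4+CD8+ 1 alone, with limma-voom, and without CD4+CD8+ 1 or 3. In the fit of the 8 libraries alone 8 members fell and none rose.

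Among 30 tested genes of double-positive identity 19 fell and 2 rose (median -0.88). Aqp11, an aquaporin expressed at this stage, stood at 0.0958, 0.799, 0.442, 1.81 and 3.39 CPM in iRTE against 108, 88 and 85.5 CPM (-6.05 ± 0.69, adjusted p = 1.92e-08). Ets2, a transcription factor of the ETS family, lay between 21.5 and 33.7 CPM against 234, 267 and 254 CPM (-3.15 ± 0.16, adjusted p = 5.56e-11). Myb, a factor needed for double-positive cell survival, lay at 8.62, 4.35, 4.16, 2.37 and 20.3 CPM against 118, 153 and 160 CPM (-4.15 ± 0.54, adjusted p = 7.53e-07). Cd24a, the heat-stable antigen that mature thymocytes lose, stood at 1.63, 10.7, 4.78, 37.8 and 17.3 CPM against 150, 116 and 128 CPM (-3.16 ± 0.77, adjusted p = 0.000148). All 4 genes were below CD4+CD8+ cells in every iRTE library, with a spread within iRTE that was widest for Aqp11 and Cd24a among them. Mean log2 CPM over the list was 7.09, 7.21 and 7.15 in CD4+CD8+ 1 to 3 and 4.26, 4.73, 4.43, 4.71 and 5.32 in iRTE 1 to 5.

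**Figure D2:**
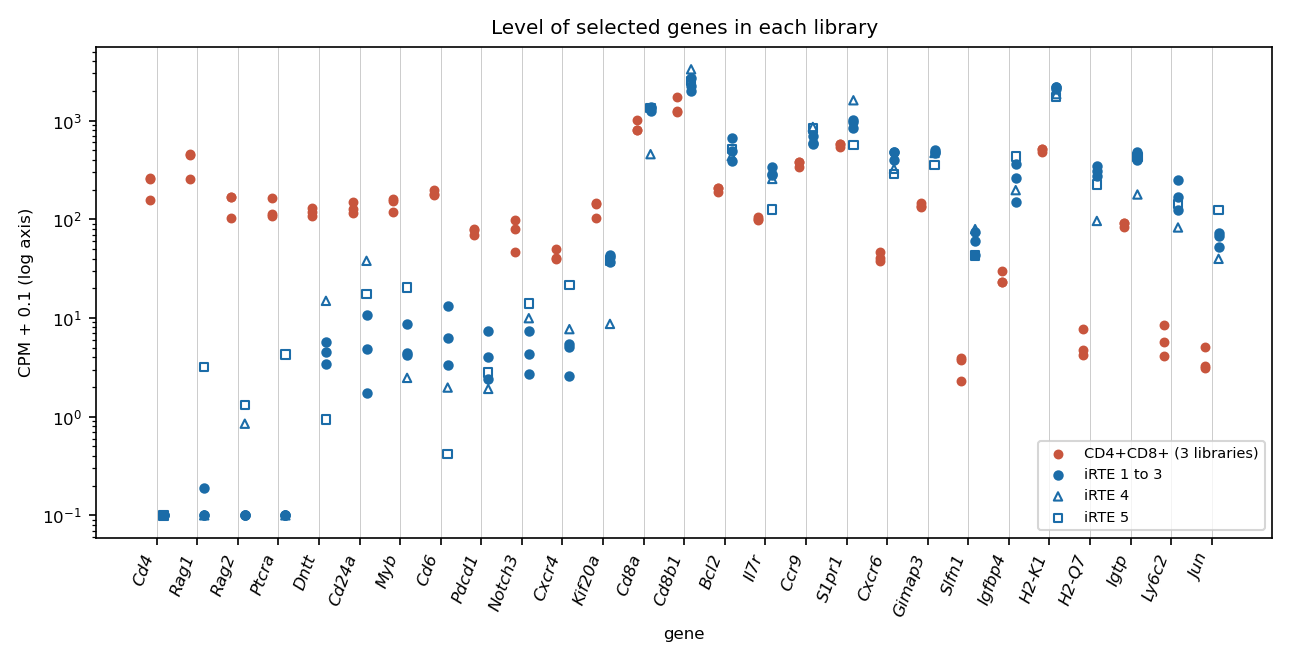
Level of selected genes in each library, in CPM plus 0.1 on a log axis, with the 3 CD4+CD8+ libraries in red and the iRTE libraries in blue (filled circles iRTE 1 to 3, open triangle iRTE 4, open square iRTE 5). From Cd4 to Kif20a every red point lies above every blue one; from Cd8b1 to Jun every blue point lies above every red one except for iRTE 5 in S1pr1, and in Cd8a iRTE 4 lies below all other libraries.

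The coreceptor and lineage list held 23 tested genes, of which 9 fell and 2 rose (median -0.22; 0.03 with CD4+CD8+ 1 alone, where 7 fell and 1 rose). Cd8b1, the beta chain of the CD8 coreceptor, stood at 2673, 2258, 1984, 3304 and 2512 CPM in iRTE against 1746, 1234 and 1248 CPM (0.85 ± 0.21, adjusted p = 0.000386), above CD4+CD8+ cells in all 5; with CD4+CD8+ 1 as the sole CD4+CD8+ library its change of 0.55 did not pass. Cd8a, the alpha chain, stood at 1351, 1385, 1262, 456 and 1339 CPM against 1004, 805 and 810 CPM and did not pass (0.41 ± 0.33, adjusted p = 0.22). For Cd8a iRTE 4 alone lay below the CD4+CD8+ libraries, and without it the change of 0.61 passed. Runx1, a factor that silences Cd4 at the earliest stages, lay between 6.23 and 10.5 CPM against 62, 63.3 and 62.3 CPM (-2.82 ± 0.14, adjusted p = 2.4e-10). Runx3, the factor of the CD8 lineage, lay between 124 and 164 CPM against 138, 118 and 111 CPM and did not pass (0.26 ± 0.11, adjusted p = 0.099), although without CD4+CD8+ 1 it did at 0.35 and without iRTE 2 at 0.31.

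The genes of positive selection and T-cell receptor signal strength moved both ways, with 6 of 27 higher and 9 lower (median -0.17). With CD4+CD8+ 1 alone 1 was higher and 8 lower (median 0.17), and with iRTE 1 to 3 it was 7 and 13 (median -0.46). The lower ones included surface receptors that track signal strength. Cd5, an inhibitory receptor whose level follows the strength of self recognition, stood at 13.1, 4, 5.75, 10.9 and 7.93 CPM against 78.6, 58.2 and 63.4 CPM (-3 ± 0.33, adjusted p = 4.72e-08). Its relative Cd6 stood at 6.13, 13.2, 3.27, 1.87 and 0.32 CPM against 175, 196 and 178 CPM (-5.26 ± 0.82, adjusted p = 6.91e-07). Pdcd1, which encodes PD-1, stood at 3.93, 7.19, 2.3, 1.81 and 2.69 CPM against 79.6, 78.4 and 68.4 CPM (-4.42 ± 0.34, adjusted p = 3.4e-09). The groups did not overlap for any of the 3. Tox, a factor needed for CD4-lineage development, lay between 22.1 and 28.6 CPM against 52.1 to 61.1 CPM (-1.11 ± 0.09, adjusted p = 2.98e-07). Bcl2l11, the death inducer Bim, was the reverse, at 226, 301, 265, 158 and 113 CPM against 70.7, 76.6 and 74 CPM (1.53 ± 0.26, adjusted p = 7.72e-05), and its rise was smaller with iRTE 4 and 5 alone (0.88).

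The transcript of the T-cell receptor itself was lower. Trac, the alpha constant region, stood at 525, 450, 417, 411 and 248 CPM against 852, 621 and 630 CPM (-0.77 ± 0.23, adjusted p = 0.00236), a call that the fit of the 8 libraries alone did not make. Trbc1, one of a pair of near-identical beta constant regions between which reads cannot be placed with certainty, stood between 489 and 1137 CPM against 1221 to 1983 CPM (-1.07 ± 0.31, adjusted p = 0.000769).

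Notch signals drive early T-cell development, and OP9-DL1 cells supply a Notch ligand. Of 21 tested Notch pathway genes 8 fell and 6 rose (median -0.08; 0.01 without iRTE 5), and 5 fell and 2 rose in the fit of the 8 libraries alone. The receptors Notch1 and Notch3 both fell. Notch1 lay between 87.5 and 132 CPM in iRTE against 297, 303 and 327 CPM (-1.58 ± 0.11, adjusted p = 4.72e-08). Notch3 stood at 2.59, 7.19, 4.25, 9.84 and 13.9 CPM against 46.1, 97.7 and 80.3 CPM (-3.28 ± 0.53, adjusted p = 5.31e-06). Lfng, a glycosyltransferase that modifies Notch receptors, was higher, at 465, 437, 422, 782 and 315 CPM against 168, 242 and 242 CPM (1.16 ± 0.28, adjusted p = 0.00042), and so was Mfng, another of the Fringe enzymes (0.66 ± 0.11, adjusted p = 0.000292; 0.5 and not called with CD4+CD8+ 1 alone).

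Among 14 tested genes of the Bcl2 family 3 rose and 2 fell (median 0.07), and 5 rose and 2 fell without iRTE 4 (median 0.15). Bcl2, the survival factor of mature T cells, stood at 389, 493, 660, 435 and 511 CPM in iRTE against 208, 205 and 189 CPM (1.31 ± 0.14, adjusted p = 4.68e-06). Bcl2l1, which encodes the Bcl-xL of double-positive cells, stood at 41.4, 34.6, 43.4, 48.8 and 28.1 CPM against 158, 135 and 138 CPM (-1.87 ± 0.16, adjusted p = 3.17e-08). Neither gene's libraries overlapped between groups. Mcl1, another member of the family, was called higher at 0.49 ± 0.15 (adjusted p = 0.00367), but not in the fit of the 8 libraries alone.

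Cytokine receptors were more often higher than lower, with 14 of 40 higher and 4 lower (median 0.23); the fit of the 8 libraries alone called 5 and 1, iRTE 1 to 3 gave 21 and 6, and iRTE 4 and 5 gave 8 and 5. Il7r, the receptor chain for the cytokine that maintains naive T cells, stood at 286, 336, 282, 256 and 125 CPM against 99.5, 105 and 98.9 CPM (1.35 ± 0.25, adjusted p = 0.000201). Il4ra, the interleukin-4 receptor chain, lay between 311 and 452 CPM against 154, 179 and 184 CPM (1.18 ± 0.15, adjusted p = 2.83e-05). Il2rg, the common gamma chain, lay between 809 and 1100 CPM against 549, 440 and 445 CPM (1 ± 0.13, adjusted p = 3.14e-06). All 3 were above CD4+CD8+ cells in 5 of 5 iRTE libraries, with iRTE 5 the lowest for Il7r. Ifngr1, the ligand-binding chain of the interferon-gamma receptor, lay between 1359 and 2200 CPM against 740, 722 and 702 CPM (1.32 ± 0.13, adjusted p = 7.53e-07). In the other direction, Il9r stood between 0.958 and 4.8 CPM against 15, 15.9 and 16.8 CPM (-2.46 ± 0.42, adjusted p = 0.000263).

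Of 29 tested genes of egress and homing 12 rose and 5 fell (median 0.38), and 4 rose and 3 fell in the fit of the 8 libraries alone. In a list of chemokine receptors that shares members with it, 5 of 12 rose and 3 fell (median 0.63); iRTE 1 to 3 gave 5 and 3 (median 0.77), and iRTE 4 and 5 gave 4 and 4 (median -0.28). Cxcr6, a chemokine receptor of innate-like and tissue-homing T cells, stood at 479, 482, 394, 324 and 285 CPM against 46.6, 40.2 and 37.8 CPM (3.24 ± 0.18, adjusted p = 2.4e-10). Cxcr4, which holds immature thymocytes near CXCL12, fell from 40.2, 39.9 and 49.9 CPM to 5.37, 2.49, 4.96, 7.6 and 21.6 CPM (-2.34 ± 0.51, adjusted p = 0.000201). Ccr9, the receptor for thymic and gut CCL25, which is present in double-positive cells and kept by naive CD8 cells, stood at 584, 594, 689, 861 and 831 CPM against 337, 377 and 382 CPM (0.96 ± 0.13, adjusted p = 1.81e-05). These 3 genes separated the groups in every library. Plxnd1, a semaphorin receptor of double-positive cells, was at 0, 0.622, 0, 1.12 and 1.34 CPM against 22.7, 25.4 and 19.5 CPM (-5.09 ± 0.77, adjusted p = 8.6e-05).

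The egress receptor genes gave smaller differences. S1pr1, the receptor for sphingosine-1-phosphate through which thymocytes leave, stood at 967, 1020, 837, 1604 and 568 CPM against 582, 579 and 545 CPM (0.81 ± 0.24, adjusted p = 0.00724). Its groups overlapped through iRTE 5, and the call was not made in the fit of the 8 libraries alone or with CD4+CD8+ 1 alone. S1pr4, a relative, lay between 68.8 and 95.6 CPM against 37.1, 30.4 and 34.7 CPM with no overlap (1.23 ± 0.12, adjusted p = 1.83e-06). Klf2, the factor that switches on S1pr1, stood at 636, 686, 836, 1193 and 397 CPM against 628, 471 and 465 CPM and did not pass (0.52 ± 0.3, adjusted p = 0.107). It was called without iRTE 5 (0.68) and with iRTE 1 to 3 (0.47). Without iRTE 4 its change was 0.29 and not called, and with CD4+CD8+ 1 alone it was 0.26. Ccr7, the lymph node homing receptor, lay between 563 and 998 CPM against 413 to 547 CPM (0.59 ± 0.2, adjusted p = 0.0102). Its call was lost in the fit of the 8 libraries alone, with CD4+CD8+ 1 alone (0.34) and without CD4+CD8+ 2 or 3 (0.52 each time). Itgb7, a gut-homing integrin chain, rose from 1151 to 1155 CPM to 1628 to 2868 CPM (0.96 ± 0.13, adjusted p = 4.38e-05).

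The list of naive and quiescence genes had 18 of 41 higher and 5 lower (median 0.52), and the Gimap and Ms4a families 9 of 14 higher and none lower (median 0.89). Gimap3, a GTPase tied to lymphocyte survival, stood at 468, 501, 484, 469 and 353 CPM in iRTE against 132, 135 and 147 CPM (1.72 ± 0.1, adjusted p = 6.54e-09). Its relative Gimap6 lay between 524 and 877 CPM against 335, 323 and 310 CPM (1.09 ± 0.12, adjusted p = 6.2e-06), and Ms4a6b, a T-cell surface protein, between 923 and 1156 CPM against 612, 518 and 532 CPM (0.92 ± 0.1, adjusted p = 2.34e-06). No iRTE library fell into the CD4+CD8+ range for these genes. Slfn1, a Schlafen protein of resting T cells, stood at 60.3, 73.6, 43.1, 79.3 and 42.9 CPM against 3.81, 2.18 and 3.64 CPM (4.22 ± 0.31, adjusted p = 4e-09), and Slfn2, which maintains T-cell quiescence, lay between 715 and 1157 CPM against 296 to 346 CPM (1.59 ± 0.13, adjusted p = 1.19e-07). Igfbp4, a binding protein for insulin-like growth factors that marks naive T cells, stood at 362, 260, 148, 197 and 432 CPM against 23, 23.1 and 29.7 CPM (3.47 ± 0.31, adjusted p = 6.53e-08).

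Among the 5 that fell were factors that double-positive cells share with naive cells. Satb1, a chromatin organiser, lay between 396 and 659 CPM against 909, 981 and 948 CPM (-0.92 ± 0.13, adjusted p = 2.77e-05). Tcf7, which encodes TCF-1, lay between 1240 and 1760 CPM against 2304, 2209 and 2151 CPM (-0.62 ± 0.09, adjusted p = 0.000149). Both were lower in all 5 iRTE libraries.

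Of 26 tested markers of recent thymic emigrants and late maturation 11 rose and 4 fell, with a median of 0.02 that equals that of all genes; without iRTE 4 it was 10 and 7 (median -0.17). Nt5e, the ectoenzyme CD73, stood at 232, 233, 146, 315 and 203 CPM against 36.9, 68.6 and 60.7 CPM (2.03 ± 0.33, adjusted p = 2.49e-06). Ly6c2, a Ly6C gene that is also induced by interferon and is near-identical to Ly6c1, stood at 248, 167, 123, 82.4 and 143 CPM against 8.39, 5.61 and 4.05 CPM (4.66 ± 0.39, adjusted p = 7.93e-09). Both genes were above the CD4+CD8+ libraries in each iRTE library. Among the 4 members that fell were Cd24a and Dntt, described above.

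MHC class I genes, which T cells raise late in maturation, were higher as a group: 22 of 29 tested members rose and 3 fell (median 0.95). H2-K1, a classical class I heavy chain, stood at 2201, 2095, 2162, 1851 and 1733 CPM in iRTE against 511, 510 and 480 CPM (2.01 ± 0.07, adjusted p = 2.48e-10). H2-D1, another classical heavy chain, stood at 3746, 3662, 3556, 2823 and 3616 CPM against 1074, 946 and 930 CPM (1.82 ± 0.1, adjusted p = 4e-09). B2m, their light chain, stood at 3254, 2912, 3630, 2086 and 1897 CPM against 1700, 1043 and 1042 CPM (1.13 ± 0.3, adjusted p = 0.000369; 0.7 and not called with CD4+CD8+ 1 alone, and 0.67 with iRTE 4 and 5 alone). The lowest iRTE library lay above the highest CD4+CD8+ library for all 3. Nlrc5, the transactivator of class I genes, lay at 130, 136, 119, 85.7 and 154 CPM against 35.5, 44.1 and 47.1 CPM (1.56 ± 0.19, adjusted p = 9.41e-07).

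The H2-Q genes of the class I region, of which H2-Q7 and H2-Q6 encode Qa-2, differed widely. H2-Q7 stood at 349, 274, 310, 96 and 224 CPM against 7.61, 4.1 and 4.62 CPM (5.52 ± 0.43, adjusted p = 5.22e-09), and H2-Q6 at 93, 89.3, 76.7, 8.1 and 26 CPM against 0, 0.503 and 0.162 CPM (7.98 ± 0.94, adjusted p = 3.32e-06). H2-Q2 went the other way, at 2.2, 2.22, 0.796, 0 and 4.93 CPM against 92, 67.1 and 86.3 CPM (-5.31 ± 0.91, adjusted p = 3.63e-07). H2-Q6 and H2-Q7 are near-identical copies, so how reads were split among H2-Q genes is uncertain. The fit of the 8 libraries alone called 15 of 26 tested members higher and 1 lower, and with CD4+CD8+ 1 as the sole CD4+CD8+ library it was 14 and 2 of 29, where 889 of 15564 genes (5.71%) were higher and 897 (5.76%) lower.

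Interferon-response genes moved in 1 direction, with 66 of 75 tested members higher and none lower (median 1.48). Ifit1, an antiviral RNA-binding protein, stood at 82.6, 103, 72.4, 9.03 and 15.8 CPM in iRTE against 1.9, 1.17 and 3.56 CPM (4.66 ± 0.83, adjusted p = 0.000105). Its relative Ifit3, near-identical to Ifit3b, stood at 30.2, 49.8, 28.1, 2.68 and 3.33 CPM against 0.346, 0.419 and 0.81 CPM (5.4 ± 0.92, adjusted p = 0.000581; not called by limma-voom). Uba7, the enzyme that activates ISG15, stood at 162, 159, 175, 143 and 248 CPM against 51.5, 52.5 and 51.5 CPM (1.78 ± 0.14, adjusted p = 1.48e-07). Libraries 1 to 3 were several times above iRTE 4 and 5 for the Ifit genes but not for Uba7, and all 5 stayed above CD4+CD8+ cells.

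Irf7, a transcription factor of the pathway, stood at 81.6, 82, 95.8, 26.9 and 7.04 CPM against 22, 18.5 and 16.6 CPM (1.62 ± 0.72, adjusted p = 0.0231). In iRTE 5 it fell below the CD4+CD8+ range, and with iRTE 4 and 5 alone the change was -0.15 and not called. Irf7 was also not called in the fit of the 8 libraries alone, with CD4+CD8+ 1 alone, with limma-voom, with no filter on low counts, without iRTE 3 (1.37) or without any 1 of CD4+CD8+ 1, 2 and 3 (1.73, 1.6 and 1.53). Over the whole list the mean log2 CPM was 4.22, 4.34 and 4.17 in CD4+CD8+ 1 to 3 and 6.13, 6.18, 6.02, 5.2 and 5.58 in iRTE 1 to 5. With iRTE 4 and 5 alone, 46 of 75 members were higher and 2 lower (median 0.98), when 11.6% of all genes were higher and 12% lower; with iRTE 1 to 3 it was 65 and none (median 1.68). The fit of the 8 libraries alone called 35 of 74 and CD4+CD8+ 1 alone 38 of 75 higher, and neither called any lower.

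The promoters of these genes were searched for GAAANNGAA, a core of the interferon-stimulated response element, on both strands in windows of 300 bases, from 250 before to 50 after each start. It was found in 45.1% of the 71 windows of 55 tested list members and in 8.56% of all 32851 windows of the table, against 8.92% of windows of higher, 6.18% of lower and 7.23% of uncalled genes. Windows of Igtp and Gbp2, a pair of interferon-induced GTPases, are shown. They come from called members of small adjusted p whose window holds the motif, and were chosen after values were seen. Slfn8, picked in the same way with the motif at position 204, is not shown. In both windows shown the motif lies just before the start. The sequences are RefSeq's for build GRCm38.p6, whereas the deposited counts were made on mm9. Capitals mark the motif, which begins at position 217 of the Igtp window (chr11:58199306-58199605, plus strand) and 193 of the Gbp2 window (chr3:142620413-142620712, plus strand).
Igtp: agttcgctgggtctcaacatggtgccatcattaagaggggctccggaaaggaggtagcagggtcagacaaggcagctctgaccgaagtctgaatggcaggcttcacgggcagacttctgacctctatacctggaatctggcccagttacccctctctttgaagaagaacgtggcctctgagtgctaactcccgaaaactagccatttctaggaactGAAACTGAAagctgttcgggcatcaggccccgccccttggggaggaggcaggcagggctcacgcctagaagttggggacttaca
Gbp2: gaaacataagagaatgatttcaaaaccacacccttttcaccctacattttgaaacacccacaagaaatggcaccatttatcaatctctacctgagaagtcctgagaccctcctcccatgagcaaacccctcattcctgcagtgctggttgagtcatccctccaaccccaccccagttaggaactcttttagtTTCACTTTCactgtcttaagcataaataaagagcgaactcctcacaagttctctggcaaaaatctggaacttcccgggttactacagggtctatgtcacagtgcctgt

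Both genes were higher in all 5 iRTE libraries. Igtp stood at 461, 477, 395, 178 and 424 CPM against 91.9, 92.5 and 83.7 CPM (2.11 ± 0.27, adjusted p = 1.5e-06). Gbp2 stood at 286, 346, 348, 69.4 and 123 CPM against 28.4, 23.8 and 24.6 CPM (3.19 ± 0.47, adjusted p = 1.1e-05), with a smaller change of 1.91 for iRTE 4 and 5 alone. A match to these letters is a description of the window and says nothing of binding.

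**Figure D3:**
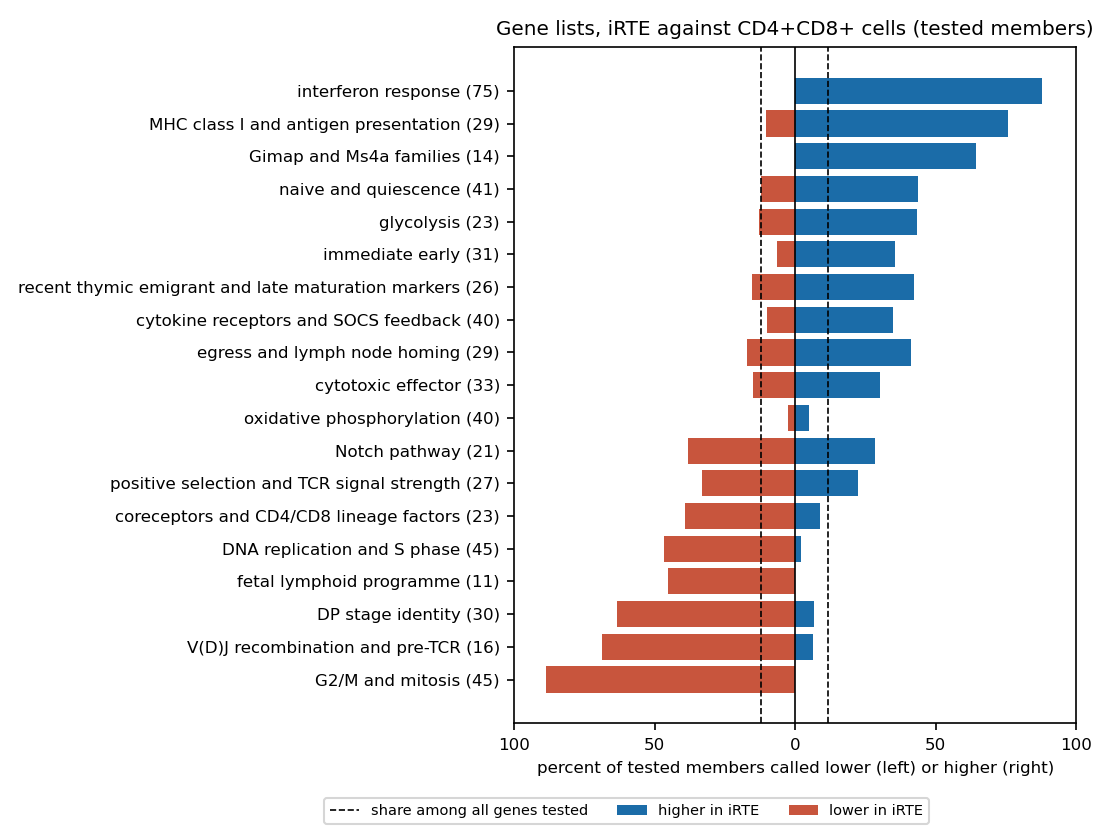
Percent of the tested members of 19 gene lists called lower (red, left) or higher (blue, right) in iRTE, with the number tested in parentheses; dashed lines mark the shares among all genes, 12.3% lower and 11.8% higher. Interferon-response genes reach furthest to the right and mitotic genes furthest to the left.

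Mitotic genes were lower almost throughout: 40 of 45 tested genes of G2 and mitosis fell and none rose (median -1.6). Kif20a, a mitotic kinesin, stood at 43.8, 36.8, 41.1, 8.6 and 38 CPM in iRTE against 102, 141 and 146 CPM (-1.95 ± 0.47, adjusted p = 0.000126). Foxm1, the factor that switches on mitotic genes, stood at 32.1, 29.7, 36.4, 15.4 and 26.7 CPM against 77.1, 67.9 and 78.1 CPM (-1.41 ± 0.22, adjusted p = 0.000107). Mki67, the proliferation antigen, stood at 35.2, 41.9, 51.3, 5.92 and 147 CPM against 256, 173 and 218 CPM (-1.94 ± 0.76, adjusted p = 0.00887), a call not made in the fit of the 8 libraries alone, with CD4+CD8+ 1 alone or with iRTE 4 and 5 alone. In all 3 genes every iRTE library was below every CD4+CD8+ library, and iRTE 4 was the lowest. The mean log2 CPM of the list was 6.81, 6.8 and 6.87 in CD4+CD8+ 1 to 3 and 5.6, 5.37, 5.48, 3.4 and 5.69 in iRTE 1 to 5, and without iRTE 4 the count was 41 lower (median -1.36). The fit of the 8 libraries alone, and the one with CD4+CD8+ 1 alone, each called 23 of 45 lower.

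The motif TTTGAA, the letters of the cell cycle homology region, was found on either strand in 70% of the 40 windows of 38 mitotic genes, in 17.9% of all windows and in 16.8%, 10.9% and 11.5% of those of lower, higher and uncalled genes. CCAAT, the NF-Y box, was found in 77.5% of the mitotic windows and 37.4% of all windows. Windows of Kif23, a kinesin of cytokinesis, and Ckap2, a spindle protein, are shown as members named by rule that hold TTTGAA. Capitals mark it at position 253 of the Kif23 window (chr9:61946750-61947049, minus strand) and 150 of the Ckap2 window (chr8:22185770-22186069, minus strand) of RefSeq's GRCm38.p6.
Kif23: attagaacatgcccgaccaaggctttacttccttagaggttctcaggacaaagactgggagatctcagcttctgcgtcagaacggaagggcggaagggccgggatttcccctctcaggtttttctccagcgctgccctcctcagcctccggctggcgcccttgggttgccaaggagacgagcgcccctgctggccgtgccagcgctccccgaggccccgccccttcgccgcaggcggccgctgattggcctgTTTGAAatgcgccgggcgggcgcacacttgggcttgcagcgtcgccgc
Ckap2: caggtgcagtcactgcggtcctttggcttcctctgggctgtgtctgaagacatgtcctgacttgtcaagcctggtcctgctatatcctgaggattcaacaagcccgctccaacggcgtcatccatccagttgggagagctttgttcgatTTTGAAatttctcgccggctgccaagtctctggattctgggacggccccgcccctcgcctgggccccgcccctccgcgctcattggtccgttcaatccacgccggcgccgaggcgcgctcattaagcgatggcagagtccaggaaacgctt

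Kif23 stood at 28.4, 29.4, 25.8, 11.3 and 34.2 CPM against 67.2, 84.6 and 79 CPM (-1.58 ± 0.3, adjusted p = 2.56e-05). Ckap2 stood at 20.9, 16.2, 11.6, 7.6 and 18.3 CPM against 46.8, 51.2 and 68.2 CPM (-1.89 ± 0.31, adjusted p = 5.58e-05). Both were lower in all 5 iRTE libraries, and lowest in iRTE 4.

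DNA replication genes moved the same way with a smaller median: 21 of 45 fell and 1 rose (median -0.61), and only 5 fell in the fit of the 8 libraries alone and 6 with CD4+CD8+ 1 alone. Dut, which removes dUTP, lay at 58.6, 52.4, 79.5, 31.9 and 66.3 CPM against 168, 105 and 111 CPM (-1.15 ± 0.31, adjusted p = 0.000495). Chaf1b, a histone chaperone subunit, lay between 41.6 and 66.1 CPM against 117, 80.5 and 93.7 CPM (-0.82 ± 0.2, adjusted p = 0.000281). Among the E2F factors of the S phase, E2f2 fell (-1.21 ± 0.19, adjusted p = 5.89e-06), while E2f1 was the 1 member called higher, at 50.8, 40, 61.6, 26.5 and 48.4 CPM against 26.2, 31.6 and 25.1 CPM (0.72 ± 0.23, adjusted p = 0.022). The libraries of E2f1 overlapped through iRTE 4, and its call was lost without CD4+CD8+ 1 (0.68), CD4+CD8+ 3 (0.65) or iRTE 3 (0.58), in the fit of the 8 libraries alone, with CD4+CD8+ 1 alone, with iRTE 4 and 5 alone (0.44) and in the fit with a replicate block. The D cyclins, which start the cycle, moved in opposite directions. Ccnd2 stood at 657, 671, 1081, 448 and 487 CPM against 212, 192 and 160 CPM (1.83 ± 0.25, adjusted p = 5.34e-06), and Ccnd3, which pre-T cells depend on, at 379, 320, 426, 337 and 295 CPM against 969, 708 and 693 CPM (-1.17 ± 0.18, adjusted p = 2.49e-06).

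**Figure D4:**
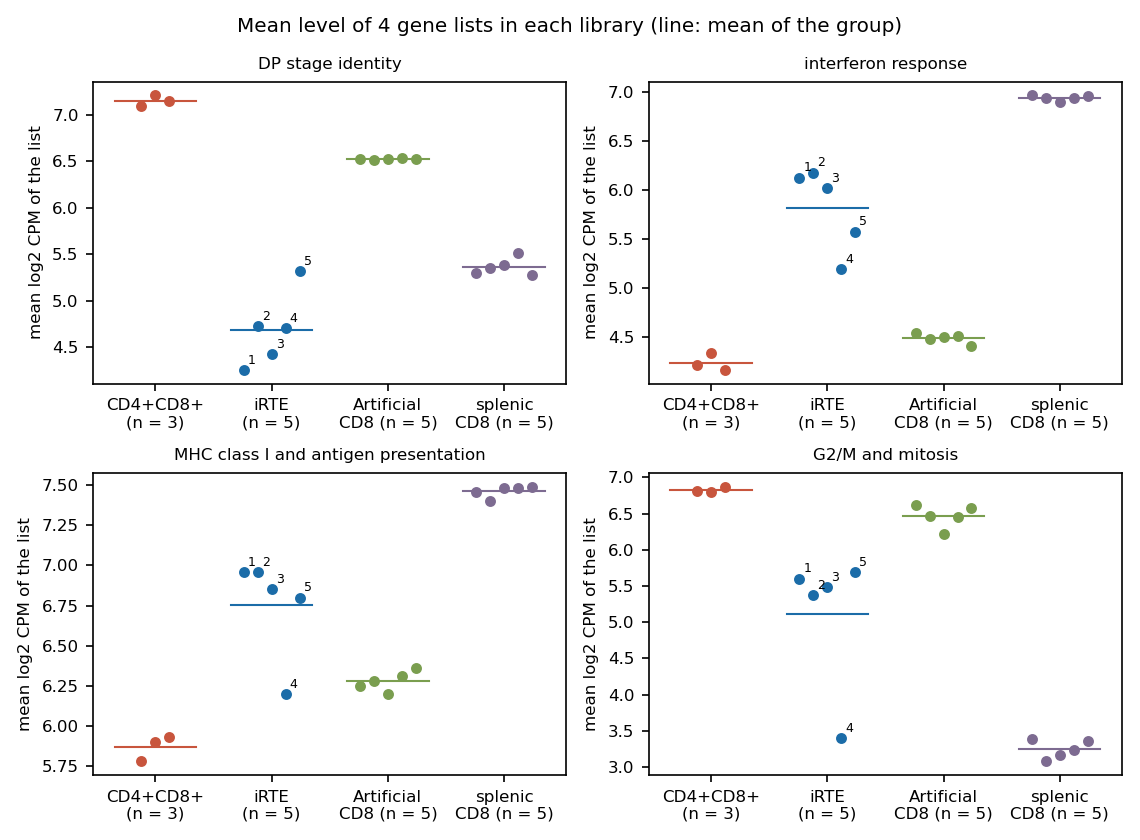
Mean log2 CPM of the tested members of 4 gene lists in each of the 18 libraries, with the mean of each group as a line and the iRTE libraries numbered. For double-positive identity iRTE lies at 4.26 to 5.32, below CD4+CD8+ cells (7.09 to 7.21) and Artificial CD8 (6.51 to 6.54). iRTE 4 is the lowest iRTE library for the other 3 lists and stands apart for MHC class I and mitosis. For the interferon list iRTE 5 (5.58) also lies below iRTE 1 to 3 (6.02 to 6.18).

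Immediate early genes, which cells switch on soon after a stimulus, rose in part, and iRTE 5 weighed heavily in the result. Of 31 tested members 11 were higher and 2 lower (median 0.81), but the mean log2 CPM was 4.17, 3.9, 3.79 and 3.26 in iRTE 1 to 4 and 6.33 in iRTE 5, against 3.88, 3.9 and 3.97 in CD4+CD8+ 1 to 3. Without iRTE 5, 10 of 30 were higher and 10 lower (median -0.09), when 14% of all genes were higher and 15% lower. With iRTE 1 to 3 it was 12 and 11 of 30 (median 0.04), and with iRTE 4 and 5 it was 19 and 1 of 31 (median 1.49). Some members did not rest on that library. Jun, a subunit of AP-1, stood at 67, 72.5, 52.6, 39.6 and 124 CPM against 3.03, 3.18 and 5.02 CPM (4.24 ± 0.35, adjusted p = 1.1e-07). Klf6, a zinc-finger factor, stood at 360, 370, 360, 326 and 540 CPM against 113, 172 and 171 CPM (1.36 ± 0.24, adjusted p = 8.94e-06), and Ier5 at 131, 109, 109, 67.9 and 174 CPM against 40.4, 47.7 and 52.7 CPM (1.33 ± 0.25, adjusted p = 8.59e-05). In these 3 genes the groups did not overlap.

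Others stood far higher in iRTE 5 than in iRTE 1 to 4. Junb stood at 110, 107, 146, 91.9 and 853 CPM against 119, 102 and 99.3 CPM and did not pass (1.3 ± 0.6, adjusted p = 0.0958; 1.52 and called without iRTE 4, 0.09 without iRTE 5, 0.19 with iRTE 1 to 3, 2.15 and called with iRTE 4 and 5). Egr1, an early target of T-cell receptor signals, stood at 20, 18.7, 16.2, 5.17 and 356 CPM against 25.4, 26.2 and 24.1 CPM and did not pass (1.72 ± 1.01, adjusted p = 0.185); its change was -0.76 without iRTE 5, -0.46 with iRTE 1 to 3, and 2.83 and called with iRTE 4 and 5. Cd69, an activation marker that holds cells in the thymus, stood at 109, 83.6, 44.1, 27.8 and 1287 CPM against 25.7, 18.3 and 24.4 CPM (3.77 ± 0.97, adjusted p = 0.00799), and its change without iRTE 5 was 1.53, still called. The call of Cd69 was lost with limma-voom (2.27), with a replicate block (2.25), in the fit of the 8 libraries alone and with CD4+CD8+ 1 alone (3.6). Rgs1, which dampens chemokine signals, was above CD4+CD8+ cells in all 5 libraries. It stood at 24.8, 28.9, 34.3, 2.99 and 62.2 CPM against 0.519, 0.168 and 0.729 CPM (5.99 ± 0.86, adjusted p = 5.22e-05).

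Cytotoxic genes were mixed, with 10 of 33 higher and 5 lower (median 0.47). The median was 0.25 without iRTE 5, with 11 of 31 higher and 4 lower, and -0.01 with iRTE 4 and 5 alone, with 8 of 32 higher and 7 lower. Ctsw, a protease of cytotoxic granules, stood at 495, 397, 441, 177 and 371 CPM in iRTE against 101, 60.4 and 60.5 CPM (2.35 ± 0.36, adjusted p = 2.49e-06). Gzma, granzyme A, was lower at 5.56, 24, 22, 4.74 and 46.7 CPM against 140, 85.1 and 101 CPM (-2.39 ± 0.67, adjusted p = 0.00081). Gzmb, granzyme B, stood at 92.9, 121, 124, 6.85 and 226 CPM against 104, 106 and 91.8 CPM and did not pass (0.19 ± 0.88, adjusted p = 0.847). The iRTE libraries lay on both sides of the CD4+CD8+ libraries for Gzmb. Cxcr3, a chemokine receptor of effector cells, was higher, at 143, 121, 62.7, 81.9 and 35 CPM against 28.6, 20.2 and 20.8 CPM (1.93 ± 0.39, adjusted p = 0.000276; not called with CD4+CD8+ 1 alone). Anxa2, a membrane-binding annexin, lay at 85.5, 127, 168, 74.6 and 19.8 CPM against 517, 447 and 468 CPM (-2.33 ± 0.53, adjusted p = 0.000104).

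Glycolysis genes were higher in 10 of 23 and lower in 3 (median 0.45), and in 3 and 1 of 22 in the fit of the 8 libraries alone. Of 40 genes of oxidative phosphorylation 2 were higher and 1 lower (median 0.05). The subsets of iRTE differed there, with 6 higher and 1 lower for iRTE 1 to 3 (median 0.22) and none higher and 8 lower for iRTE 4 and 5 (median -0.27); that difference was not tested. Pdk1, a kinase that inhibits pyruvate dehydrogenase, lay between 183 and 299 CPM against 100, 139 and 132 CPM (1.05 ± 0.19, adjusted p = 2.25e-05). Aldoa, an aldolase, lay between 475 and 899 CPM against 320 to 434 CPM (0.97 ± 0.2, adjusted p = 0.000228). With CD4+CD8+ 1 alone the change of Aldoa was 0.72 and not called. Ldhb, a lactate dehydrogenase subunit, was far lower, at 5.75, 5.77, 4.25, 19.4 and 11 CPM against 264, 234 and 233 CPM (-4.69 ± 0.39, adjusted p = 8.04e-09). Of 11 tested genes of the fetal lymphoid programme 5 fell and none rose (median -0.97). The median was -1.46 without iRTE 5, -1.91 with iRTE 1 to 3 and -0.45 with iRTE 4 and 5. In summed CPM of the list iRTE 5, at 496, lay within the 438 to 527 of CD4+CD8+ cells, and iRTE 1 to 4 lay at 155 to 208. H19, an imprinted fetal RNA, stood at 0, 0.0888, 0, 0.872 and 0 CPM against 9.77, 10.4 and 7.37 CPM (-5.31 ± 0.58, adjusted p = 2.62e-05), Sox4 at 1.82, 9.32, 11.9, 11 and 14.5 CPM against 60.9, 95.4 and 85 CPM (-3.04 ± 0.56, adjusted p = 1.99e-06), and the chromatin protein Hmga1 between 48.5 and 90.3 CPM against 118 to 132 CPM (-0.97 ± 0.17, adjusted p = 0.000148).

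Outside these programmes, the naming rule picked the largest differences among genes that separated the groups. Klhl14, a Kelch-family protein, stood at 52.9, 47.1, 25.7, 5.42 and 10.6 CPM in iRTE and at 0 in all CD4+CD8+ libraries, at least 113-fold higher (adjusted p = 7.98e-05). Fgl2, a secreted regulator of immune cells, stood at 375, 334, 173, 42.1 and 179 CPM against 4.93, 4.27 and 7.45 CPM (5.31 ± 0.61, adjusted p = 2.48e-06). Qpct, a glutaminyl cyclase, stood at 82, 58.2, 70.6, 24.7 and 7.29 CPM against 2.94, 0.251 and 1.78 CPM (4.87 ± 1.11, adjusted p = 0.000133). All 3 were lowest in iRTE 4 or 5, yet above CD4+CD8+ cells there too. The rule also gave Art2b, an ADP-ribosyltransferase of mature T cells with a near-identical copy (4.9 ± 0.49, adjusted p = 2.29e-05), Abhd14a (5.58 ± 1.17, adjusted p = 6.97e-05) and the inhibitory receptor Lilrb4 (4.51 ± 0.95, adjusted p = 0.000501; not called with limma-voom or with CD4+CD8+ 1 alone).

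The largest falls were of genes with no or almost no count in iRTE. Arhgef10l had none in any iRTE library and stood at 34.3, 28.2 and 27.7 CPM in CD4+CD8+ cells, at least 126-fold lower (adjusted p = 2.16e-07). F13a1, a coagulation factor subunit (at least 99.7-fold, adjusted p = 1.53e-06), Esrp1, a splicing regulator (78.8-fold, adjusted p = 3.72e-06), Slc5a9, a sugar transporter (77.6-fold, adjusted p = 2.14e-07), and Nwd1 (56.8-fold, adjusted p = 0.000184) were likewise at 0 in all 5. Rgl3 stood at 0 in iRTE 1 to 4 and 0.512 CPM in iRTE 5 against 38.4, 33.8 and 30.2 CPM (adjusted p = 1.19e-06). Angpt1, an angiopoietin, and Cpeb1, an RNA-binding protein, had a single iRTE library with counts each, with ratios of 471 (exact 95% counting interval 130 to 3899) and 474 (130 to 3921). In all, 132 called genes had no count in iRTE and 44 had none in CD4+CD8+ cells.

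Markers of other cells were looked at in the same libraries, and only some of the lists are described here. Of 13 tested gamma-delta T markers 2 rose and 5 fell (median 0.04). Cd163l1, a member that rose, stood at 3113, 2830, 2867, 4249 and 4945 CPM in iRTE against 1328, 1772 and 1699 CPM (1.17 ± 0.21, adjusted p = 4.58e-05). Of 20 stromal markers 11 were tested, of which 9 fell and 1 rose. The fit of the 8 libraries alone tested only 4 of them and called 1 lower and none higher. The summed CPM of the 11, leaving out Vim and Thy1, which T cells express, was 2.08, 65.5 and 115 in CD4+CD8+ 1 to 3. In iRTE 1 to 5 it was 4.41, 3.37, 0.973, 4.49 and 2.05. Cxcl12, a chemokine of stromal cells, was at 0.173, 4.19 and 18 CPM in CD4+CD8+ 1 to 3 and at 0 in iRTE, where Col1a1, Col3a1 and Vcam1 were also at 0. Stromal transcripts therefore moved with the comparison in CD4+CD8+ 2 and 3 but not in CD4+CD8+ 1, and their part in single genes was not tested. With CD4+CD8+ 1 alone, an arm of 1 library, none of the 11 was called. In that fit 15 of 30 genes of double-positive identity, 8 of 16 of V(D)J recombination and 23 of 45 of mitosis were called lower.

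**Figure D5:**
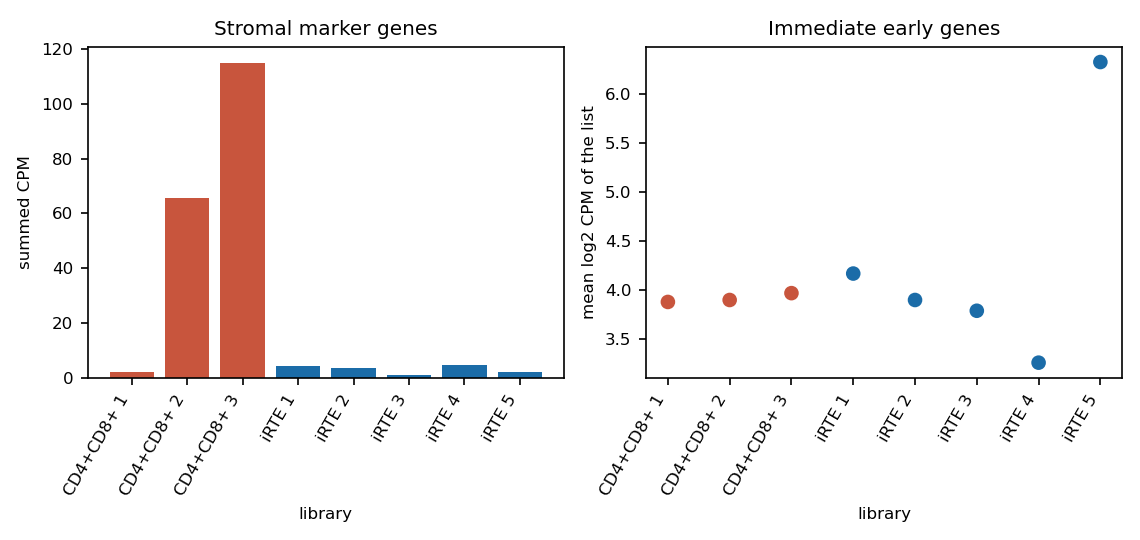
Left, summed CPM of stromal markers other than Vim and Thy1 in each of the 8 libraries; right, mean log2 CPM of the immediate early list. Stromal transcripts are high in CD4+CD8+ 2 and 3 (65.5 and 115), and immediate early genes are high in iRTE 5 (6.33).

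Of 11 tested markers of CD4 helper and regulatory T cells 2 rose and 5 fell. Ctla4, an inhibitory receptor, was among those that rose, with no overlap. It stood at 158, 203, 162, 144 and 134 CPM against 55.1, 53.8 and 62.8 CPM (1.49 ± 0.12, adjusted p = 3.74e-07). Foxp3, the factor of regulatory T cells, stood at 0.383, 1.95, 2.04, 3.49 and 0.704 CPM against 24.6, 14.1 and 14.7 CPM (-3.35 ± 0.57, adjusted p = 2.34e-05), and Cxcr5, the follicle-homing receptor, between 1.25 and 5.86 CPM against 30.4 to 33 CPM (-3.03 ± 0.42, adjusted p = 1.26e-06). Of the NK and innate receptors 5 of 20 rose and 7 fell (median 0.47). Without iRTE 4 it was 9 and 6, with iRTE 1 to 3 it was 8 and 8 (median 0.88), with iRTE 4 and 5 it was 2 and 6 (median -0.49), and the fit of the 8 libraries alone gave 1 and 5 of 17. Cd226, a member that rose, stood at 82.6, 72.2, 50.3, 25.7 and 40.6 CPM against 12.5, 9.8 and 10.4 CPM with no overlap (2.31 ± 0.32, adjusted p = 1.44e-05). Among those that fell, the near-identical NKG2 genes Klrc1 and Klrc2 had counts in 1 iRTE library each, against 5.36 to 8.26 CPM and 4.44 to 5.18 CPM in CD4+CD8+ cells (adjusted p = 2.34e-06 and 9.12e-07).

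To see where the iRTE libraries differ from the other CD8+ cells, iRTE was tested directly against each; these contrasts share the iRTE libraries with the one above. Against Artificial CD8, 20% of genes were higher and 18.7% lower in iRTE, and against splenic CD8 29.2% and 29%. Of the 30 double-positive identity genes 20 were lower in iRTE than in Artificial CD8 and 4 higher, and 13 lower and 6 higher than in splenic CD8. Rag1 was at 153 ± 12.6 CPM (SD, n = 5) in Artificial CD8, 7.7 log2 units above iRTE (adjusted p = 4.66e-07), and had no count in splenic CD8. Ptcra, at 20.8 ± 5.48 CPM in Artificial CD8, was also higher there than in iRTE (adjusted p = 0.000493).

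Interferon-response genes were higher in iRTE than in Artificial CD8 for 64 of 75 members and lower for 1, and higher than in splenic CD8 for 8 and lower for 43. Mean log2 CPM of that list was 4.41 to 4.55 in Artificial CD8 and 6.9 to 6.97 in splenic CD8, with iRTE between them. H2-K1 followed that order, at 707 ± 44.8 CPM and 4995 ± 232 CPM (SD, n = 5 each), 1.51 below and 1.31 above iRTE on the log2 scale (adjusted p = 3.5e-10 and 4.43e-10). Mitotic genes also separated iRTE from both: 37 of 45 were lower in iRTE than in Artificial CD8 and 2 higher, and 42 were higher than in splenic CD8 and 1 lower, although iRTE 4, at a mean log2 CPM of 3.4, lay next to the splenic range of 3.08 to 3.39. Cxcr6 and Jun were higher in iRTE than in either group. Cxcr6 was at 31.5 ± 1.98 CPM in Artificial CD8 and 139 ± 6.21 CPM in splenic CD8, below iRTE by 3.64 and 1.49 log2 units (adjusted p = 1.81e-12 and 1.74e-08), and Jun at 3.19 ± 0.791 and 7.93 ± 0.35 CPM, below by 4.48 and 3.16 (adjusted p = 1.2e-09 and 1.39e-08). Cd5 and Cd6 were lower in iRTE than in either. Cd6 was at 87.3 ± 14.3 CPM in Artificial CD8 and 265 ± 16.3 CPM in splenic CD8, 4.19 and 5.79 log2 units above iRTE (adjusted p = 1.48e-06 and 2.25e-08).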

How the data were processed

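RNA from 18 sorted mouse libraries was sequenced, and the authors deposited raw counts per gene for each library. Reads were handled with STAR 2.4.2, Subread and edgeR on build mm9, per the submitters' processing notes; the strand setting of counting is not given in the sources used here. The deposited counts of 43280 genes were tested as they stand with edgeR 4.0.16 (R 4.3.3): genes of low counts were removed with filterByExpr, libraries were scaled by TMM, and the quasi-likelihood test with robust fitting was run over all 18 libraries, so that all groups share the estimate of spread, with Benjamini-Hochberg adjustment over the 13922 genes left and a threshold of 0.05. SE is that of the difference of group means of log2 CPM (prior count 2). A group with no count was set at the floor of 3 counts per library, and ratios resting on 1 to 3 counts carry exact 95% intervals; both cover counting error only. Alternatives used DESeq2 1.42.0, limma 3.58.1 (voom), other filters, scaling and sets of libraries.

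The comparison and the gene lists were chosen with earlier results of these data known. Named genes are all key genes, up to 12 of the largest rises and falls among called genes whose groups do not overlap and reach a mean of 10 CPM in 1 of them (predicted, clone-named, Y-linked and Xist genes were not considered), and, for each list, the called members of smallest adjusted p (4 in its majority direction and 2 against it) with up to 2 uncalled ones of high level. The text describes a part of these. Igtp and Gbp2 were added for their promoters after values were seen. Lists are described by counts and medians, without a set test. Promoter windows matched 9398 of the 13922 genes by symbol in RefSeq, build GRCm38.p6.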

Additional observations from a re-analysis of the deposited data

Results flagged for a closer look

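Among the 5 iRTE libraries, 16 of 115 genes and 3 of 20 lists had 1 library whose distance from its nearest neighbour on the log2 scale (CPM plus 0.25 for genes, mean log2 CPM for lists) was more than 0.71 of the whole range, Dixon's limit for 5 values, which chance passes in about 1 of 20 groups. Of these, 12 fell on iRTE 4, 6 on iRTE 5, 1 on iRTE 1 and none on iRTE 2 or 3. Genes under 1 CPM in all 5 iRTE libraries are counted in the 115 but were not put to this limit, so the share among genes examined is larger.

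iRTE 4 stood lowest for Cd8a (456 CPM), H2-D1 (2823 CPM), Igtp (178 CPM), Ctsw (177 CPM), Gzmb (6.85 CPM), Kif23 (11.3 CPM), Kif20a (8.6 CPM) and Abhd14a (1.43 CPM), and highest for Ccr7 (998 CPM). It was also lowest in mean log2 CPM for MHC class I and antigen presentation (6.20), DNA replication (4.84) and genes of G2 and mitosis (3.40).

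iRTE 5 stood highest for Rag1 (3.07 CPM), Ptcra (4.16 CPM), Klf6 (540 CPM) and Junb (853 CPM), and lowest for Il7r (125 CPM) and Gimap3 (353 CPM). iRTE 1 stood lowest for Sox4 (1.82 CPM).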

How the results depend on the processing

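The fit of the 8 libraries alone called 516 genes higher and 552 lower, 365 and 430 of them at least 2-fold. With iRTE 1 to 3 alone 2615 genes were lower. With CD4+CD8+ 1 as the sole CD4+CD8+ library, an alternative added after seeing the data in which that library is assumed to vary like the other groups, 889 were higher and 897 lower, 590 of the latter at least 2-fold. A filter of 10 CPM left 530 lower at least 2-fold, and a test against a 2-fold threshold (glmTreat) called 219 higher and 411 lower. Genes whose groups do not overlap numbered 5154 with iRTE 1 to 3 and 5272 with iRTE 4 and 5. Separation comes more easily with fewer libraries. These counts, and those with 1 library left out, therefore do not compare directly with the 2715 found with all 8. Leaving out each library in turn gave 1115 to 1931 higher and 1293 to 2158 lower, 576 to 859 and 799 to 1101 at least 2-fold, and 2952 to 4234 not overlapping, the last without CD4+CD8+ 1. The sign changed for Egr1 with iRTE 1 to 3 (-0.46) and without iRTE 5 (-0.76), for Irf7 with iRTE 4 and 5 (-0.15), and for Gzmb with limma-voom (-0.5), with a replicate block (-0.03) and without iRTE 5 (-0.22); the cause was not tested. Leaving out each library in turn spanned -0.76 to 2.03 for Egr1 and -0.22 to 0.49 for Gzmb. Over the named genes 2118 values kept direction and call, 44 lost the call, 9 gained it and 6 changed sign.

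With a replicate block 1394 genes were higher and 1604 lower, 641 and 910 at least 2-fold. Deviations of same-numbered libraries correlated at -0.02, 0.01 and -0.07, within the range of -0.09 to 0.12 for differently numbered ones. These values gave no sign of pairing by number, but so few libraries cannot exclude it.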
